A study of Mus musculus with 12 samples.

Results

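The cytosolic ribosome is built from ribosomal RNA and one copy of most of its ribosomal proteins, which are named Rpl and Rplp in the large subunit and Rps and Rpsa in the small subunit. These genes were selected by name from the protein-coding rows of the gene count table. The selection gave 83 of 54446 rows (21969 of them protein-coding), with 51 genes of the large subunit and 32 of the small subunit. Of these, 81 passed the filter on low counts and were tested, namely 49 of the large and all 32 of the small subunit. The 2 others were Rpl10l, which had no count in any of the 12 samples, and Rpl3l, which had 2 to 13 counts per sample. Rpl10l and Rpl3l are known as copies of Rpl10 and Rpl3 used mainly in testis and in striated muscle. A further 6 rows carried names of this form but were annotated as pseudogenes and were left out.

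The cells were NIH3T3, an immortalized mouse embryonic fibroblast line. The study compared wild-type cells with ΔN-VEGF cells, in which CRISPR/Cas9 had removed the N-VEGF coding region of both Vegfa alleles. N-VEGF is the amino-terminal part that is cleaved from a long form of VEGF-A, and the study asked how its loss changes the transcriptional response to low oxygen. Both lines were kept in normoxia or for 16 h in a hypoxia chamber below 0.2% oxygen, with 3 samples in each of the 4 groups. The ΔN-VEGF cells were derived from single-cell clones and had passed through drug cassettes, their excision by VCre and a sort, which the wild-type cells had not, so a difference between the lines cannot be told apart from clonal history. Only part of Vegfa was removed, so its gene count does not check the deletion. Mean Vegfa level was 69.4 in normoxia and 280 in hypoxia in wild-type cells, and 35.7 and 429 in ΔN-VEGF cells, in TMM-scaled CPM, that is, counts relative to library size after a scaling by the trimmed mean of M-values (TMM) that sets the typical gene equal between libraries. All 11 fibroblast markers passed the filter. Their summed level was 17761 to 44481 CPM. Markers of other cell types summed to 4.83 to 59.0 CPM for leukocytes (led by Csf1r), 2.71 to 25.9 CPM for endothelium (Cdh5), 1.52 to 37.0 CPM for skeletal muscle (Acta1) and 0.355 to 8.80 CPM for epithelium (Krt19). Of these, 3 of 6 leukocyte, 1 of 6 endothelial, 2 of 5 muscle and 2 of 6 epithelial markers had 3 counts or fewer in every sample, among them Ptprc, Cd3e, Kdr, Myod1 and Epcam. All 5 sums, that of the fibroblast markers included, were higher in every hypoxia sample than in every normoxia sample of the same line, and their part in the results was not tested.

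The libraries held 30519052 to 43056690 counts. Wild-type normoxia replicate 2 stood apart. Its log2 profile correlated with those of the other 2 samples of its group at r = 0.961 and 0.962 over genes, while all other pairs within a group were at 0.990 or higher. Results that turned on this sample are given without it as well where such a fit was made.

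Ribosomal protein genes are transcribed at high and balanced rates. Their mRNAs are the classical members of the TOP class, which begin with a cytosine followed by a run of pyrimidines and whose translation is controlled by the mTORC1 kinase through 4E-BP and Larp1. Low oxygen is known to inhibit mTORC1. The counts analysed here measure polyadenylated mRNA and not its translation.

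The start regions of 9 members named in the results are shown, among them Rps27 and Rpl39 beside their paralogues Rps27l and Rpl39l. Each window holds 10 bases before and 20 bases from the annotated RefSeq start (GRCm38.p6), and capitals mark a C followed by at least 4 bases that are each C or T, on the transcribed strand, beginning within 5 bases of the start. Rps6, Rps27 and Rpl35 carried such a tract across the annotated start. The paralogues Rps27l and Rpl22l1 carried one just after it, Rps27l at the first of its 2 RefSeq starts and not at the other. That of Rpl39 ended on the annotated first base, and Rpl39l, Rpl7l1 and Rpl10 had none in that range. Rpl22, the standard gene of Rpl22l1, is not printed and had none at either of its 2 RefSeq starts.
Rps6, chr4:86857348-86857377, minus strand: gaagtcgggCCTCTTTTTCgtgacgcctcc
Rps27, chr3:90213629-90213658, minus strand: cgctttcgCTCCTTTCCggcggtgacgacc
Rps27l, chr9:66946076-66946105, plus strand: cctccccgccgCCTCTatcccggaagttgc
Rpl39, chrX:37085203-37085232, minus strand: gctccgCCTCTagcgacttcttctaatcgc
Rpl39l, chr16:10170218-10170247, plus strand: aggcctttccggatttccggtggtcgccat
Rpl22l1, chr3:28805498-28805527, plus strand: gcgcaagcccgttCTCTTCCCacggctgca
Rpl7l1, chr17:46782637-46782666, minus strand: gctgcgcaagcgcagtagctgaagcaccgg
Rpl10, chrX:74270806-74270835, plus strand: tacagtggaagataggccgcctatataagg
Rpl35, chr2:39005112-39005141, minus strand: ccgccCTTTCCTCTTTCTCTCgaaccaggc

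RefSeq starts were matched for 63 members, with 75 starts in all. The annotated first base was itself a C followed by at least 4 pyrimidines at 13 of the 75 (17.3%), compared with 2.51% of all 32851 RefSeq starts and 0 of 75 starts of mitochondrial ribosomal protein genes. With the C allowed up to 5 bases to either side, the shares were 41.3% for the members, 18.4% for all starts and 22.7% for the mitochondrial set. A tract in this window is a match of letters and not a mapped start. The hypoxia response described below was similar on both sides of this division. In ΔN-VEGF cells, the median log2 fold change was 0.47 over the 29 tested members with a tract near a start and 0.43 over the 32 without, and in wild-type cells it was 0.23 and 0.22.

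Together, the 83 members took a nearly constant part of the counts. Wild-type cells gave them 7.19, 6.18 and 7.27% of the counts in normoxia and 6.87, 6.97 and 6.66% in hypoxia. ΔN-VEGF cells gave them 6.92, 6.90 and 6.75% in normoxia and 7.07, 7.22 and 7.08% in hypoxia. The lowest of the 12 values belonged to wild-type normoxia replicate 2. In wild-type cells the samples of the 2 conditions overlapped only through normoxia replicate 2. The other 2 wild-type normoxia samples lay above all 3 hypoxia samples. In ΔN-VEGF cells, by contrast, the 3 hypoxia samples lay slightly above the 3 normoxia samples. The large subunit took 3.60 to 4.26% and the small subunit 2.58 to 3.11%.

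The TMM factors, however, differed between the conditions. They were 1.01 to 1.21 in wild-type normoxia, 0.957 to 0.975 in wild-type hypoxia, 1.05 to 1.13 in ΔN-VEGF normoxia and 0.825 to 0.837 in ΔN-VEGF hypoxia. The same member counts therefore summed to 60744, 61034 and 60300 CPM in wild-type normoxia after TMM scaling, and with hypoxia to 70678, 72786 and 68244 CPM. The ΔN-VEGF sums were 61986, 65467 and 59972 CPM in normoxia and 84947, 87510 and 84631 CPM in hypoxia. On this scale every hypoxia sample was above every normoxia sample, and the ΔN-VEGF hypoxia samples were above all others. Between 6.96 and 10.5% of the counts of a library fell on its 10 leading genes and 1.53 to 3.55% on the mitochondrial genome, the first with its highest and the second with its lowest values in ΔN-VEGF hypoxia. The part of these abundant transcripts in the scaling was not tested, and no added reference RNA is described, so the amount of mRNA per cell was not measured. In such bulk samples, fewer expressing cells and less RNA per cell cannot be told apart.

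**Figure D1:**
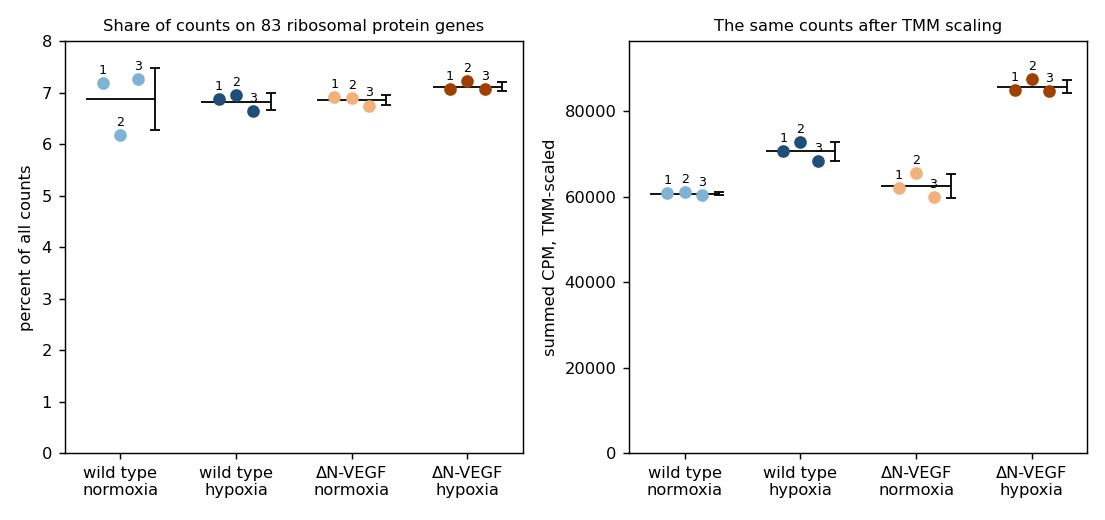
Share of all counts (left, percent) and summed TMM-scaled CPM (right) of the 83 ribosomal protein genes in each sample, with the group mean (line) and SD (bar, n = 3); small digits are replicate numbers. The shares lie between 6.18 and 7.27% in all groups, while the TMM-scaled sums reach 84631 to 87510 CPM in ΔN-VEGF hypoxia.

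The levels per length spanned a wide range. In RPKM, that is, TMM-scaled CPM per kilobase of annotated exon, averaged over all 12 samples, the median member stood at 360. The stalk protein genes Rplp1 (2861) and Rplp0 (2287) were among the 5 highest, with Rps15 (2594), Rpl36 (1986) and Rpl32 (1758). The lowest of the tested members were Rps10 (2.53) and Rpl24 (6.04), followed by the paralogue Rpl22l1 (10.4). Both Rps10 and Rpl24 encode universal parts of the ribosome, yet their rows held only 167 to 377 and 195 to 320 counts per sample. Their exons lay in part under other annotated genes. The row RPS10-NUDT3 covered 28.7% of the exon bases of Rps10 and the row Gm28037 covered 47.0% of those of Rpl24, and both of these rows had 0 counts in all 12 samples. The part of this overlap in the low counts was not tested. Neither gene was called in any contrast of all 12 samples, and the values of these 2 rows are uncertain as levels.

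Most members also shared sequence with other genes. In a median of 38.6% of their 80-base windows, the length of the reads, the sequence also occurred in another annotated gene. The share was above 0 for 78 members and above 50% for 31. The 298 rows annotated by name as ribosomal protein pseudogenes took only 0.067 to 0.081% of the counts. How reads that match several genes were counted is not given in the sources used here, so levels of members with many shared windows are uncertain. Across the 81 tested members, the response to hypoxia in ΔN-VEGF cells was only weakly related to the share of shared windows (Pearson r = 0.13) or to level per length (r = 0.12), as a description across genes that share all libraries.

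In wild-type cells, hypoxia was accompanied by a moderate rise of part of the set. With TMM scaling, 27 of the 81 tested members were higher and 0 lower at an adjusted p below 0.05 (edgeR quasi-likelihood test, adjusted over all 14724 genes). Of all genes tested, 18.2% were higher and 18.3% lower by the same rule. At an unadjusted p below 0.05, 47 members were higher and 1 lower, beside 22.1% and 24% of all genes. The median log2 fold change was 0.21 over the members and -0.071 over all genes, and 75 members had a positive value. In 55 members all 3 hypoxia samples lay above all 3 normoxia samples, which was so in 23.2% of all genes, and only Rpl39l showed the reverse, as did 21.8% of all genes. When wild-type normoxia replicate 2 was left out, 50 members were higher and 0 lower, beside 27.1% and 26.9% of all genes, and the median was 0.24. The count fell to 14 and 13 without wild-type hypoxia replicate 1 or 2, beside 14.6% and 15.3% of all genes higher, to 9 with no filter on low counts (7.97%) and to 4 in a fit of the 6 wild-type samples alone (13.2%).

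The members with the largest rises in wild-type cells were Rpl22l1, Rpl35a, Rpl10, Rpl7 and Rpl9. Rpl10 (chrX:74270812-74273135), which completes the large subunit late in its assembly and helps shape the tRNA sites, was at 634, 519 and 656 CPM in normoxia and at 815, 830 and 753 CPM in hypoxia. All hypoxia samples were above all normoxia samples, and the log2 fold change was 0.41 ± 0.10 (SE, adjusted p = 0.0067, edgeR). Rpl7 was at 949, 959 and 941 CPM in normoxia and at 1324, 1189 and 1254 CPM in hypoxia, with a log2 fold change of 0.40 ± 0.08 (adjusted p = 0.0029, edgeR). Rpl35a rose from 73.6 to 89.2 CPM in normoxia to 105 to 114 CPM in hypoxia (0.44 ± 0.11, adjusted p = 0.0074, edgeR).

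In ΔN-VEGF cells nearly the whole set was higher in hypoxia on the TMM scale. Of the 81 members, 69 were higher and 1, Rps27l, was lower, beside 26.9% and 26.4% of all genes. The median log2 fold change was 0.46, compared with -0.01 over all genes, and 77 members had a positive value. The samples of the conditions did not overlap in 72 members that were higher and in 2 that were lower, beside 34.9% and 35.6% of all genes. Both subunits moved alike, with a median of 0.43 over 49 large subunit genes and 0.48 over 32 small subunit genes. All 27 members called higher in wild-type cells were also among the 69 here. Leaving out wild-type normoxia replicate 2, which enters this contrast through the filter, the TMM scaling and the shared spread, gave 72 higher and 2 lower, beside 32.8% and 34.3% of all genes.

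The largest rise was that of Rpl10, from 577, 568 and 573 CPM in normoxia to 1119, 1167 and 1108 CPM in hypoxia (log2 fold change 0.98 ± 0.10, adjusted p = 1.06e-05, edgeR). The levels in hypoxia were close to 2 times those in normoxia and the samples were far apart. Rpl22, an RNA-binding large subunit protein that is dispensable for growth of most cells, rose from 382, 355 and 382 CPM to 619, 638 and 652 CPM (0.77 ± 0.09, adjusted p = 3.43e-05, edgeR). Rpl39, a very short protein that lines the exit tunnel, rose from 152, 159 and 136 CPM to 237, 262 and 255 CPM (0.76 ± 0.12, adjusted p = 0.00036, edgeR). In the small subunit, Rps16 rose from 942, 1130 and 950 CPM to 1721, 1666 and 1638 CPM, and Rps27 rose from 302, 294 and 307 CPM to 484, 507 and 507 CPM. Both had a log2 fold change of 0.73.

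Of 13 members with known roles of their own, all were higher in hypoxia in ΔN-VEGF cells and 7 in wild-type cells on the TMM scale, beside 69 and 27 of the 81 members and 26.9% and 18.2% of all genes, though by total counts Rps25, Rps3 and Rpsa were below 0 in ΔN-VEGF cells. The stalk proteins Rplp0, Rplp1 and Rplp2, which recruit translation factors, were higher in hypoxia in ΔN-VEGF cells by log2 values of 0.43, 0.44 and 0.43, all with adjusted p below 0.05. In wild-type cells their log2 fold changes of 0.21, 0.31 and 0.17 did not pass the test, but those of 0.21, 0.38 and 0.24 without normoxia replicate 2 did. Rpl5 and Rpl11, which form the 5S particle and can bind Mdm2, rose in both lines. Rpl5 had log2 fold changes of 0.35 (wild type) and 0.43 (ΔN-VEGF), and Rpl11 of 0.35 and 0.49. Rps6, the substrate of S6 kinase downstream of mTORC1, had 1605, 1403 and 1519 CPM in wild-type normoxia and 1777, 1669 and 1652 CPM in wild-type hypoxia. This difference was not called (0.17 ± 0.08, adjusted p = 0.12, edgeR). In ΔN-VEGF cells Rps6 rose from 1476, 1575 and 1435 CPM to 2082, 2162 and 2094 CPM (0.50 ± 0.08, adjusted p = 0.00042, edgeR). The log2 fold changes of Rps3, Rps19, Rpsa, Rps27a and Rpl13a lay between 0.25 and 0.33 in wild-type cells and between 0.32 and 0.50 in the ΔN-VEGF line, and all passed the test in both lines. Rps25 and Rpl38 passed it in ΔN-VEGF cells (0.32 and 0.40) and not in wild-type cells (0.14 and 0.23), where Rpl38 passed it without normoxia replicate 2 (0.25).

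**Figure D2:**
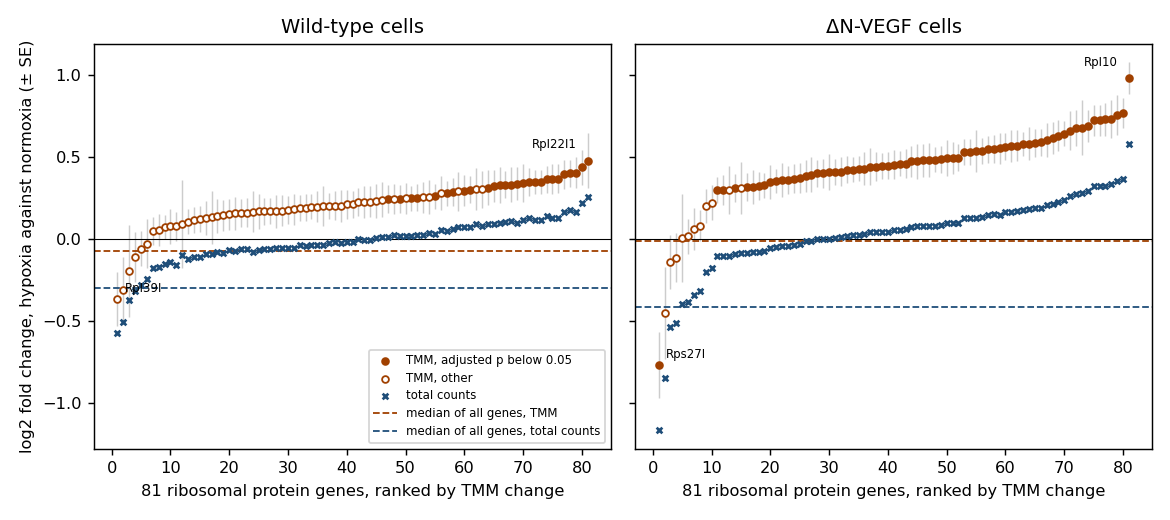
Log2 fold change in hypoxia of the 81 tested ribosomal protein genes in each line, ranked by the TMM-scaled value (circles with SE; filled where the adjusted p is below 0.05), with the value of the same gene under total-count scaling as crosses and the median of all tested genes as dashed lines. The circles have medians of 0.21 and 0.46 in the left and right panels, and the crosses -0.017 and 0.056.

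The direction of these calls depended on the scaling. When the libraries were scaled by their total counts, hypoxia left 1 member (Rpl35a) higher and 4 lower in wild-type cells, and 8 higher and 7 lower in the ΔN-VEGF line. The corresponding shares of all genes were 12.8% higher and 32.7% lower in wild-type cells, and 15.3% and 44.5% in ΔN-VEGF cells. The median of the members was then -0.017 and 0.056, while that of all genes was -0.30 and -0.41. The gap between these medians was 0.28 for the wild type and 0.47 for the ΔN-VEGF line, and is nearly the same by TMM because another scaling moves all genes together. In wild-type cells 37 members then kept a positive value, where TMM gave 75, and in the ΔN-VEGF line 54, where TMM gave 77. Relative to all counts the set was nearly flat, and relative to the typical gene it was higher. No total-count fit without wild-type normoxia replicate 2, which had the lowest share of member counts, was made.

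To compare the members with each other, each library was scaled to its summed member counts, an alternative chosen after the data were seen that sets the whole set near 0. In ΔN-VEGF cells, 65 of 81 members then stayed within 0.25 of the sum on the log2 scale, 7 were higher and 8 were lower, beside 14.7% and 47.0% of all genes, shares that cannot be read against the members because the scaling is centred on them. Among the 7 were Rpl10 (0.52), Rpl22 (0.31), Rpl39 (0.30), Rps16 (0.28), Rps27 (0.27) and Rpl17 (0.27). The 8 were Rps27l (-1.22), Rpl7l1 (-0.90), Rpl39l (-0.59), Rpl27 (-0.57), Rpl8 (-0.44), Rps2 (-0.39), Rpl35 (-0.37) and Rps13 (-0.23). Of these, 6 higher members and Rps27l were called in the same direction under all 3 scalings. In wild-type cells 75 members stayed within 0.25, Rpl39l (-0.58), Rps27l (-0.52) and Rps13 (-0.27) were lower and 0 were higher, beside 31.3% and 13.0% of all genes; at an unadjusted p below 0.05, 5 were lower and 2 higher, beside 37.4% and 14.8%. Without wild-type normoxia replicate 2 the counts higher and lower were 5 and 5 in wild-type cells, beside 18.1% and 39.7% of all genes, and 13 and 14 in ΔN-VEGF cells, beside 18.8% and 53.1%. In wild-type cells Rpl39l (-0.38) and Rps13 (-0.20) were then still lower, whereas Rps27l was not called (-0.19, adjusted p = 0.070, edgeR).

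**Figure D3:**
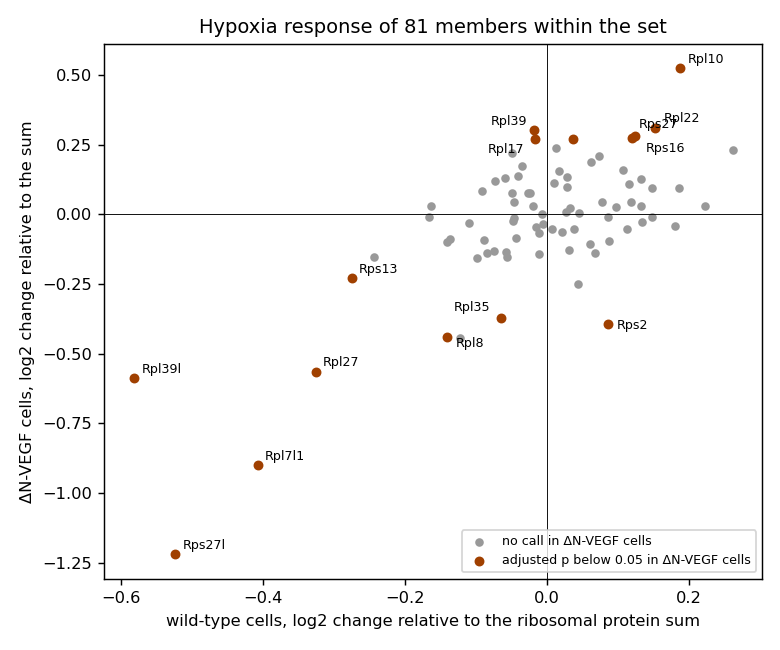
Log2 change in hypoxia of each of the 81 tested ribosomal protein genes relative to the summed counts of the set, in wild-type cells (horizontal) and ΔN-VEGF cells (vertical); members with an adjusted p below 0.05 in ΔN-VEGF cells are filled in colour, and most are labelled. Rps27l, Rpl7l1 and Rpl39l lie lowest (-1.22, -0.90 and -0.59 in ΔN-VEGF cells) and Rpl10 highest (0.52).

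The lowest 3 of these are paralogues, that is, second genes for a protein close to a standard member. Rps27l, known as a p53 target, is close to Rps27; Rpl39l, known for its use in testis and in some tumours, to Rpl39; and Rpl7l1 is a nucleolar relative of Rpl7. The counts of a paralogue were set against those of its parent in the same library, a ratio that does not depend on scaling. Rps27l had 19.6, 24.7 and 20.5% of the counts of Rps27 in ΔN-VEGF normoxia and 7.66, 7.96 and 7.29% in hypoxia. The ranges were far apart, and the ratio fell by 1.49 on the log2 scale (exact permutation test, two-sided p = 0.1, the smallest that 3 against 3 samples allow). In wild-type cells the values were 15.6, 32.6 and 14.6% in normoxia and 13.7, 12.5 and 12.6% in hypoxia. The highest of them was again wild-type normoxia replicate 2. The log2 change was -0.60 with this sample and -0.22 without it, against -1.39 in ΔN-VEGF cells without the normoxia sample of the same number.

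Rpl39l showed the same direction, with 46.9, 59.6 and 50.1% of the counts of Rpl39 in ΔN-VEGF normoxia and 30.1, 27.2 and 27.5% in hypoxia (log2 change -0.88, exact permutation p = 0.1). In wild-type cells its share went from 38.4, 56.3 and 28.9% to 28.4, 26.3 and 26.4%. The lowest normoxia value lay just above the highest hypoxia value, and without replicate 2 the log2 change was -0.30. Rpl7l1 had 9.68, 11.4 and 9.42% of the counts of Rpl7 in ΔN-VEGF normoxia and 4.96, 5.20 and 5.17% in hypoxia (log2 change -0.99, exact permutation p = 0.1). In wild-type cells the hypoxia values of 7.11, 7.77 and 7.67% overlapped the normoxia values of 7.68, 18.2 and 8.01%. Rpl22l1, whose parent Rpl22 is known to repress it, did not follow the others. Its share of the counts of Rpl22 was 4.14, 6.38 and 4.19% in ΔN-VEGF normoxia and 4.63, 4.26 and 4.83% in hypoxia, ranges that overlapped (log2 change -0.07, exact permutation p = 1). Rpl3l and Rpl10l were too low for a ratio.

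**Figure D4:**
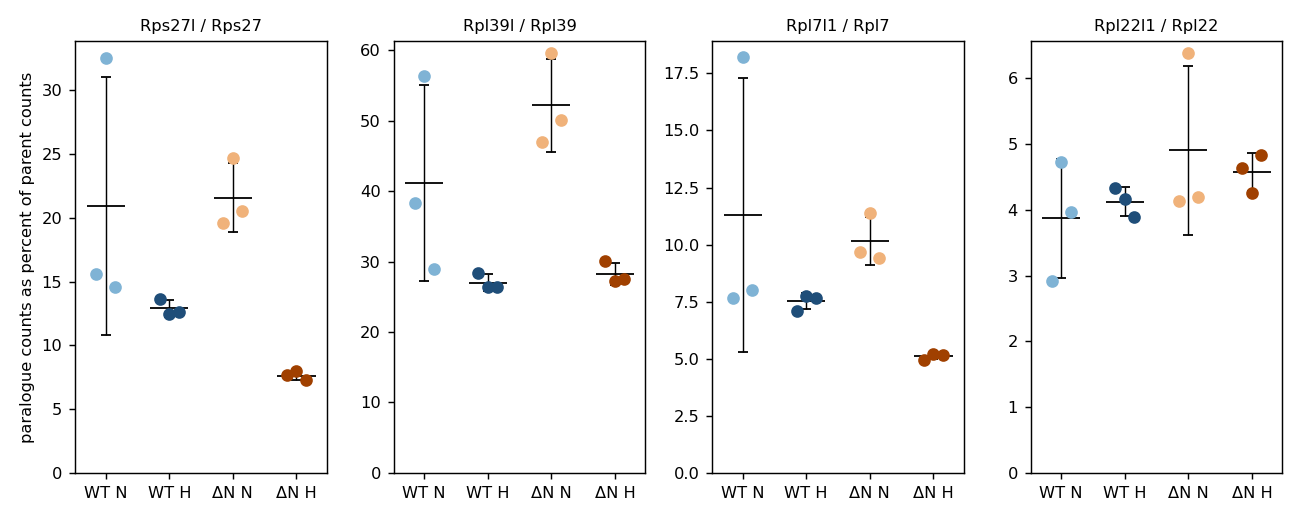
Counts of 4 paralogues as percent of the counts of their parent gene in each sample, with mean and SD (n = 3); WT and ΔN are the lines, N is normoxia and H hypoxia. Rps27l falls from 19.6 to 24.7% in ΔN-VEGF normoxia to 7.29 to 7.96% in hypoxia, while Rpl22l1 overlaps between conditions; the outlying wild-type normoxia point is replicate 2.

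As single genes on the TMM scale, Rps27l was at 59.2, 72.5 and 63.0 CPM in ΔN-VEGF normoxia and at 37.0, 40.4 and 37.0 CPM in hypoxia (log2 fold change -0.77 ± 0.20, adjusted p = 0.0081, edgeR). Rpl7l1 was at 112, 152 and 112 CPM and at 87.0, 94.6 and 93.0 CPM. The samples did not overlap, but the value of -0.45 ± 0.28 did not pass the test (adjusted p = 0.20, edgeR). Without wild-type normoxia replicate 2, which was at 175 CPM beside 72.9 and 75.4 CPM in the other 2 samples of its group, the same contrast gave -0.46 ± 0.10 (adjusted p = 0.0016, edgeR). In wild-type cells its log2 fold change went from -0.19 with this sample to 0.35 without it (adjusted p = 0.022, edgeR). Rpl39l overlapped between the conditions in ΔN-VEGF cells and was not called there without this sample (-0.15 ± 0.11, adjusted p = 0.24, edgeR). In the same fit its parent Rpl39 rose by 0.75 ± 0.10 (adjusted p = 2.2e-05, edgeR).

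In the fit of all 12 samples the lines differed little in normoxia. Only Rpl7 was called, higher in ΔN-VEGF cells, and 0 members were lower, with 1.39% of all genes higher and 2.97% lower. At an unadjusted p below 0.05, 8 members were higher and 1 lower, beside 6.17% and 12.8% of all genes, and DESeq2 called 5 higher and 1 lower, beside 3.14% and 6.76% of all genes. Rpl7 was at 949, 959 and 941 CPM in wild-type and at 1156, 1333 and 1184 CPM in ΔN-VEGF normoxia (0.37 ± 0.08, adjusted p = 0.033, edgeR). All samples of the lines were apart in 14 members that were higher and 2 that were lower, Rpl17 and Rps14, beside 6.55% and 9.72% of all genes. The samples numbered alike in the 2 normoxia groups deviated together, and with the replicate number as a block in the 6 normoxia samples alone, 0 members were called, Rpl7 having an adjusted p of 0.27 (edgeR). With the block in all 12 samples 2 members were higher, beside 1.55% of all genes. A fit that left out wild-type normoxia replicate 2 gave 13 higher and 3 lower, beside 25.7% and 23.2% of all genes. The largest of the higher ones were the paralogues Rpl39l (0.77), Rpl7l1 (0.77) and Rps27l (0.61), and the lowest member was Rpl17 (-0.43). By total counts Rpl39l was the 1 member called, higher, beside 1.21% of genes higher and 2.59% lower, and by the member sum Rpl7 was higher and Rpl17 lower, beside 1.07% and 3.37%.

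In hypoxia, ΔN-VEGF cells had 35 members higher and 0 lower than wild-type cells, beside 10.8% and 9.36% of all genes. The median log2 difference was 0.26, compared with -0.01 over all genes, and 65 members had no overlap between the lines in this direction, beside 29.7% of all genes. At an unadjusted p below 0.05, 55 were higher and 0 lower, beside 16.8% and 16.3% of all genes. Among the largest were Rpl39l (0.77), Rpl39 (0.71), Rps7 (0.63) and Rps15 (0.58). Rps7 was at 876, 845 and 819 CPM in wild-type and at 1309, 1304 and 1327 CPM in ΔN-VEGF hypoxia. Rpl39l was at 43.3, 43.1 and 38.3 CPM in wild-type and at 71.2, 71.3 and 70.1 CPM in ΔN-VEGF hypoxia. It stood at 46.2, 67.9 and 46.2 CPM in wild-type and at 71.5, 94.5 and 67.9 CPM in ΔN-VEGF normoxia, where the difference was not called (0.54 ± 0.16, adjusted p = 0.093, edgeR). This call varied with the treatment of the normoxia samples numbered 2, which were the highest of both lines. Rpl39l was called without the wild-type one (0.77 ± 0.12, adjusted p = 0.00028, edgeR), without both (0.60, adjusted p = 3.02e-07, edgeR) and with the replicate block in all 12 samples (0.55, adjusted p = 0.044, edgeR), and not with the block in the 6 normoxia samples alone (0.56, adjusted p = 0.15, edgeR) or without the ΔN-VEGF one (0.39, adjusted p = 0.25, edgeR). Under total counts 10 members were higher and 5 lower, beside 4.57% and 22.2% of all genes, and under the member sum 7 and 8, beside 4.09% and 25.0%. Leaving out wild-type normoxia replicate 2 gave 59 higher and 0 lower by TMM, beside 21.2% and 21.2%. Fewer were higher without wild-type hypoxia replicate 3 (16) or ΔN-VEGF hypoxia replicate 2 or 3 (19 and 20), beside 5.44%, 6.07% and 5.85% of all genes. Rpl28, Rpl39, Rpl39l, Rps15 and Rps7 were among those called higher under TMM, total counts and the member sum.

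The difference between the hypoxia responses of the lines was tested itself as an interaction. Only Rpl10 passed, with a larger response in ΔN-VEGF cells by 0.58 ± 0.14 (adjusted p = 0.046, edgeR), and 0 members had a smaller response. The background was 2.22% of all genes larger and 1.15% smaller. The median difference over the members was 0.23, beside 0.03 over all genes, and 73 of 81 members had a larger response in ΔN-VEGF cells. At an unadjusted p below 0.05, 30 members were larger and 0 smaller, beside 12.7% and 8.34% of all genes, and DESeq2 called 26 larger, beside 7.39% of all genes. With the replicate number as a block in all 12 samples, Rpl10 was not called (0.57, adjusted p = 0.061, edgeR), and 0 members were, beside 2.15% and 1.13% of all genes. This block also pairs the hypoxia samples, although only same-numbered normoxia samples deviated together. A fit that left out wild-type normoxia replicate 2 called 31 larger and 4 smaller, beside 21.4% and 23.0% of all genes, the smaller ones being Rps27l (-0.81), Rpl7l1 (-0.81), Rps10 (-0.57) and Rps2 (-0.43). Under total counts and under the member sum 0 members were called, beside 0.998% and 5.13% of all genes for total counts and 0.856% and 3.84% for the member sum, and the medians were 0.039 and -0.011. At an unadjusted p below 0.05, 1 member was larger and 4 smaller by either of these scalings, beside 5.84% and 19.4% of all genes for total counts and 5.31% and 19.7% for the member sum. By the member sum without wild-type normoxia replicate 2, 8 were larger and 10 smaller, beside 12.8% and 33.8% of all genes.

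Genes of the wider ribosome pathway were set beside the members. Factors that assemble ribosomes in the nucleolus (96 tested) were more often lower than higher in hypoxia in ΔN-VEGF cells, where 5 were higher and 43 lower with a median log2 fold change of -0.66 by TMM, and 3 higher and 82 lower by total counts. All genes gave 26.9% and 26.4% in these directions by TMM, and 15.3% and 44.5% by total counts. Rrp12, needed for export of both subunits, was at 68.4, 134 and 68.6 CPM in ΔN-VEGF normoxia and at 12.2, 13.7 and 11.9 CPM in hypoxia (-2.84 ± 0.56, adjusted p = 0.0014, edgeR). Its normoxia samples varied, with replicate 2 the highest, but all were above all hypoxia samples. Sbds, which releases the factor that keeps new large subunits apart, and Nop53 went the other way (0.73 and 1.01, both called, and also higher by total counts). In wild-type cells 1 factor was higher and 26 were lower with a median of -0.49 by TMM, beside 18.2% and 18.3% of all genes. By total counts 1 was higher and 53 lower (-0.66), beside 12.8% and 32.7%. Leaving out wild-type normoxia replicate 2, however, gave 20 higher and 21 lower by TMM, beside 27.1% and 26.9% of all genes, and a median of 0.075. The fall of the list median by TMM in wild-type cells thus rested on 1 library. In this sample Rrp12 stood at 169 CPM, compared with 37.0 and 33.7 CPM in the other 2 of its group. Rrp12 itself was still called lower in wild-type hypoxia without this sample (log2 fold change -1.13, adjusted p = 0.0012, edgeR). In ΔN-VEGF cells, leaving out both normoxia samples numbered 2 gave 11 higher, 72 lower and a median of -0.54, beside 35.4% and 36.0% of all genes.

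The mitochondrial ribosomal proteins, which translate the few mRNAs of the mitochondrial genome, did not move with their cytosolic counterparts. In ΔN-VEGF cells 3 of 77 were higher and 47 lower (median -0.56), and by total counts 0 were higher and 71 lower, with the same shares of all genes beside them as above (26.9% and 26.4%, and 15.3% and 44.5%). Mrpl16 fell from 23.3 ± 5.0 to 7.35 ± 0.62 CPM (SD, n = 3), a log2 fold change of -1.66 ± 0.28 (SE, adjusted p = 0.00055, edgeR), and Mrpl41 from 31.4 ± 7.9 to 9.85 ± 0.76 CPM. In wild-type cells 1 was higher and 20 lower by TMM (median -0.31), beside 18.2% and 18.3% of all genes. By total counts 1 was higher and 52 lower (-0.51), beside 12.8% and 32.7%. With wild-type normoxia replicate 2 left out, the TMM counts were 12 and 19, beside 27.1% and 26.9%, and the median was -0.0022.

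Of 16 genes for transcription by RNA polymerase I, which makes ribosomal RNA, 2 were higher and 7 lower in ΔN-VEGF cells (median -0.26), beside 26.9% and 26.4% of all genes. By total counts 0 were higher and 12 lower (-0.66) in ΔN-VEGF cells and 1 and 7 (-0.32) in wild-type cells, beside 15.3% and 44.5%, and 12.8% and 32.7%. By TMM in wild-type cells 2 were higher and 4 lower (-0.11), beside 18.2% and 18.3%, and without normoxia replicate 2 the counts were 5 and 3, beside 27.1% and 26.9%, with a median of 0.021. The direction of the wild-type median thus turned with 1 library. Polr1e, a subunit of the polymerase, was at 15.7, 22.0 and 15.9 CPM in ΔN-VEGF normoxia and at 5.92, 5.66 and 5.18 CPM in hypoxia (log2 fold change -1.68). In wild-type cells it was at 9.86, 25.7 and 9.45 CPM in normoxia and at 4.98, 5.78 and 5.27 CPM in hypoxia. The wild-type log2 fold change was -1.49 with replicate 2, which held the highest value, and -0.85 without it, and was called in both fits. Polr1c, a subunit shared with RNA polymerase III, rose by 0.31 and 0.49 in ΔN-VEGF and wild-type cells by TMM. By total counts it was at -0.096 in ΔN-VEGF cells and not called, and at 0.28 in wild-type cells and called.

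Translation factors and other genes of the TOP class (24 tested) lay closer to the members. In ΔN-VEGF cells 11 were higher and 4 lower (median 0.22), beside 26.9% and 26.4% of all genes. In wild-type cells 3 were higher and 0 lower (0.12), beside 18.2% and 18.3%, and 8 and 0 without normoxia replicate 2 (0.17), beside 27.1% and 26.9%. By total counts the balance of calls turned, with 5 higher and 8 lower in ΔN-VEGF cells (median -0.19) and 2 and 3 in wild-type cells (-0.11), beside 15.3% and 44.5%, and 12.8% and 32.7%, of all genes. Of 15 genes for mTORC1 and its control of TOP mRNAs, 2 were higher and 6 lower in ΔN-VEGF cells (median -0.17), and 1 was higher and 4 lower in wild-type cells (-0.20), beside the same shares of all genes. Without wild-type normoxia replicate 2 the wild-type counts were 3 and 4 and the median was 0.044. By total counts 1 was higher and 11 lower in ΔN-VEGF cells (-0.57) and 1 and 8 in wild-type cells (-0.41). Eif4ebp1, which encodes a translation repressor held off by mTORC1, rose in both lines, from 140 ± 23 to 483 ± 47 CPM (wild type) and from 134 ± 13 to 616 ± 9.0 CPM (ΔN-VEGF; log2 fold changes 1.79 and 2.19). Mtor, the kinase itself, fell from 76.4 ± 3.9 to 39.7 ± 2.2 CPM and from 75.7 ± 1.6 to 35.4 ± 1.0 CPM (-0.94 and -1.10). These 4 changes were called under both scalings.

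**Figure D5:**
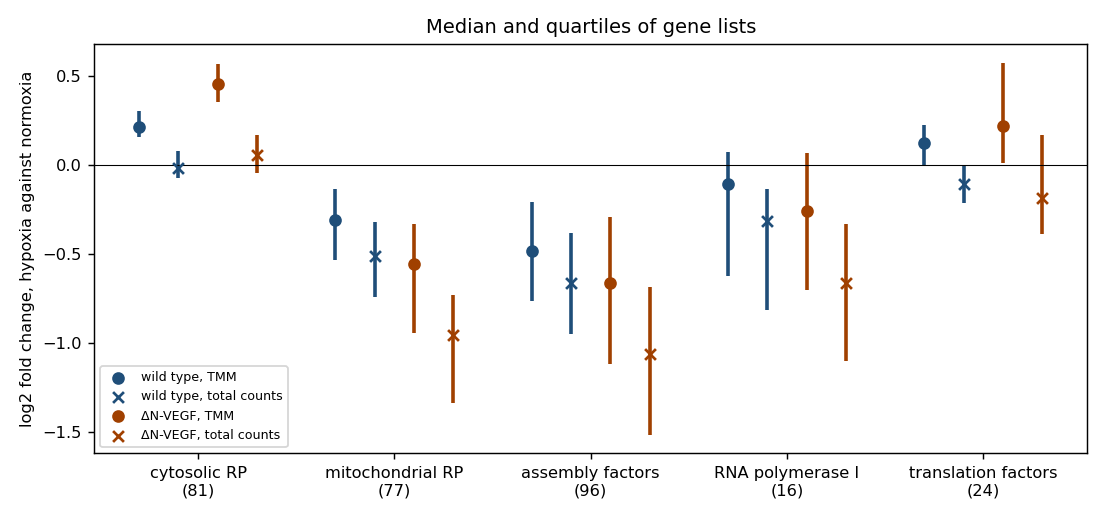
Median (symbols) and quartiles (bars) of the log2 fold change in hypoxia for 5 gene lists in each line, by TMM (circles) and by total counts (crosses), with the number of tested genes under each name. In ΔN-VEGF cells the cytosolic ribosomal proteins have medians of 0.46 and 0.056 and the mitochondrial ones -0.56 and -0.95; the wild-type values of the lists rest in part on replicate 2 of normoxia.

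Of the genes for ribosome components whose names fall outside the rule, Fau, which encodes Rps30 fused to a ubiquitin-like protein, rose most clearly. It was at 418, 385 and 380 CPM in wild-type normoxia and 643, 711 and 622 CPM in hypoxia, and at 353, 397 and 324 CPM in ΔN-VEGF normoxia and 862, 855 and 781 CPM in hypoxia. The conditions were well separated in both lines. The log2 fold changes were 0.74 ± 0.10 and 1.22 ± 0.10 by TMM (adjusted p = 0.00017 and 2.49e-06, edgeR) and 0.51 and 0.82 by total counts, called in each case. Rack1, a scaffold on the small subunit, behaved like the members, with 0.20 (adjusted p = 0.11, edgeR) for wild-type cells and 0.51 (adjusted p = 0.00086, edgeR) for ΔN-VEGF cells.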

How the data were processed

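RNA was sequenced from 12 samples (4 groups of 3) with a poly(A) kit that does not mark strand, as single reads of 80 bases. The authors trimmed, aligned with TopHat2 2.1.0 and Bowtie2 2.2.6 to GRCm38.p6 (Ensembl release 94) and deposited raw counts per gene from HTSeq-count 0.6.1. The counting mode and the treatment of reads matching several genes are not given in the sources used here.

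Members and gene lists were chosen with earlier results of these data known. From the deposited counts, edgeR 4.0.16 (R 4.3.3, limma 3.58.1) fitted 1 mean per group to all 12 samples (TMM, filterByExpr, quasi-likelihood, Benjamini-Hochberg over 14724 genes). A call is an adjusted p below 0.05. The 5 contrasts were hypoxia in each line, line in each condition, and their interaction. The script was tested on simulated data. Alternatives were total counts, DESeq2 1.42.0 size factors and test, other filters, a replicate block, smaller fits, left-out samples, a fold threshold and, chosen after seeing the data, scaling to the member sum (also without wild-type normoxia replicate 2) and a normoxia-only block. Nothing says which samples came from separate experiments, so p-values measure the spread between these samples, which may be technical. No pair of samples differed by less than sampling noise.

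Same-numbered samples correlated in their deviations at 0.50, 0.57 and 0.48 between the normoxia groups, and at -0.04 to 0.19 in the other contrasts, so the numbers pair only the normoxia samples, as a property of the data. Named genes were the 5 largest changes per direction and contrast among calls, paralogue pairs, members with roles of their own, the 5 most abundant and the untested members, and the 2 largest changes per direction of each other list; further genes named in the scaling comparison were those called there. Rps4l of the rule is a pseudogene row with 0 counts. Some genes that the rule selects are not reported here. Exon lengths, overlaps and 80-base windows came from GENCODE M21 (GRCm38), start sequences from RefSeq (63 of 83 members matched). With 3 against 3 samples an exact permutation p cannot go below 0.1. At 30519052 counts or more, 78 members had at least 1000 counts in every sample, so counting error is small beside the spread between samples.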

Additional observations from a re-analysis of the deposited data

Results flagged for a closer look

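Rpl10 was the 1 member whose hypoxia response differed between the lines by a test of the difference itself in the TMM fit of all 12 samples. DESeq2 called 26 members larger, beside 7.39% of all genes. The fit without wild-type normoxia replicate 2 called 31 larger and 4 smaller, beside 21.4% and 23.0% of all genes. The response was larger in ΔN-VEGF cells by 0.58 on the log2 scale (adjusted p = 0.046, edgeR, over all 14724 genes), the wild-type response being 0.41 and that of the ΔN-VEGF line 0.98. All 3 ΔN-VEGF hypoxia samples (1119, 1167 and 1108 CPM) lay above the other 9. By total counts the difference was 0.41 (adjusted p = 0.19, edgeR) and relative to the member sum 0.34 (adjusted p = 0.17, edgeR). Without wild-type normoxia replicate 2, in which Rpl10 had its lowest level (519 CPM), it was 0.66 (adjusted p = 8.0e-05, edgeR). The call was lost with the replicate number as a block (0.57, adjusted p = 0.061, edgeR), with no filter (0.49, adjusted p = 0.18, edgeR) and without any other single sample, where the difference was 0.51 to 0.59 and the adjusted p 0.056 to 0.13 (edgeR). Rpl10 shares 84.8% of its 80-base windows with other genes, and the part of this in the difference was not tested.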

How the results depend on the processing

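By total counts, members called higher and lower numbered 1 and 4 in wild-type hypoxia (median -0.017), 8 and 7 in ΔN-VEGF hypoxia (0.056), and 10 and 5 between the lines in hypoxia (0.0394), with 0 higher for the interaction (0.0385). All genes gave 12.8% and 32.7%, 15.3% and 44.5%, and 4.57% and 22.2% in these contrasts, and 0.998% higher for the interaction. By the member sum the counts were 0 and 3 (median -0.0053), 7 and 8 (0.00084), and 7 and 8 (-0.021), with 0 for the interaction (-0.011) and 1 lower between the lines in normoxia. All genes gave 13.0% and 31.3%, 14.7% and 47.0%, and 4.09% and 25.0%, with 0.856% and 3.84% for the interaction and 3.37% lower in normoxia. With the member sum and wild-type normoxia replicate 2 left out, an alternative added after seeing the data, the member counts were 5 and 5 (median 0.0078), 13 and 14 (0.00084), 14 and 14 (-0.021), 8 and 10 for the interaction (-0.026), and 12 and 7 in normoxia, where all genes gave 22.5% and 25.1%. Between the lines in hypoxia all genes gave 8.81% and 44.2%. They gave 18.1% and 39.7% in wild-type hypoxia, 18.8% and 53.1% in ΔN-VEGF hypoxia, and 12.8% and 33.8% for the interaction. By total counts positive members fell from 77 to 54 in ΔN-VEGF hypoxia and from 75 to 37 in wild-type hypoxia. Of the genes named with a role of their own and called by TMM, Rps25 (-0.078), Rps3 (-0.074) and Rpsa (-0.084) were among those that changed sign in ΔN-VEGF cells. In wild-type hypoxia the members higher numbered 45 by DESeq2, 9 with no filter, 41 with at least 10 counts in every sample and 4 in a fit of those groups alone, beside 19.7%, 7.97%, 19.3% and 13.2% of all genes. Without a filter the medians were 0.36 in ΔN-VEGF hypoxia, 0.12 between the lines in normoxia and 0.14 for the interaction, with 23 members higher between the lines in hypoxia and 0 for the interaction, beside 3.98% and 0.762%. Between the lines in normoxia, DESeq2 gave 5 higher and 1 lower (3.14% and 6.76% of all genes), and RLE size factors and the filter of 10 counts each 1 lower (3.05% and 3.17%). For the interaction RLE gave 2, DESeq2 26 and the filter of 10 counts 2, beside 2.45%, 7.39% and 3.02%. Fits of the compared groups alone gave 2 lower in ΔN-VEGF hypoxia, 0 higher in normoxia, and 65 higher and 1 lower in hypoxia between the lines, beside 35.7%, 0.0502%, 27.9% and 29.1%. No member passed a fold change of 2, which gave 0 in each contrast. With both normoxia samples numbered 2 left out, the counts higher and lower were 64 and 1 in wild-type hypoxia, 2 lower in ΔN-VEGF hypoxia, 15 and 7 and 67 and 1 between the lines in normoxia and hypoxia, and 47 and 4 for the interaction, beside 32.8% and 32.5%, 36.0%, 27.8% and 25.8%, 27.5% and 28.3%, and 25.8% (larger) of all genes. Rpl7l1 was then at 0.35 in wild-type hypoxia, as it was without wild-type normoxia replicate 2 alone, and ranged down to -0.41 with other single samples left out. The replicate block gave 2 higher in normoxia and 0 for the interaction, and 0 higher in normoxia when fitted to those 6 samples alone; it moved no other count by over 1.5 times. Leaving out single samples gave 13 to 50 higher in wild-type hypoxia, 63 to 72 higher and 1 to 2 lower in ΔN-VEGF hypoxia, 0 to 13 higher and 0 to 3 lower between the lines in normoxia, 16 to 59 higher in hypoxia, and 0 to 31 higher and 0 to 4 lower for the interaction, with the upper ends of the wild-type, line and interaction counts reached without wild-type normoxia replicate 2. Over the same fits, 14.6 to 27.1% of all genes were higher in wild-type hypoxia. In ΔN-VEGF hypoxia 22.5 to 32.8% were higher and 20.4 to 34.3% lower. Between the lines 0.376 to 25.7% were higher and 0.726 to 23.2% lower in normoxia, and 5.44 to 21.2% higher in hypoxia. For the interaction 0.342 to 21.4% were higher and 0.151 to 23.0% lower. As a share of protein-coding counts only, the set took 6.96% in ΔN-VEGF normoxia and 7.24% in ΔN-VEGF hypoxia. The cause of these shifts was not tested. Counts of this depth do not limit the members except Rps10, Rpl24, Rpl22l1 and the 2 untested.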
